A study of Arabidopsis thaliana with 9 samples.

Results

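Callus of a pnet1 mutant of Arabidopsis thaliana was compared with callus of the wild type. The comparison used the 3 libraries labelled mutant and the 3 labelled control, 6 of the 9 libraries in the series, chosen by their labels alone. The mutant is given as a pnet1 knockout, without its allele, and all groups are in the Col-0 ecotype with no treatment. The other 3 libraries came from a PNET1 overexpression line, for which the labels do not give the promoter or the number of lines, and are used here only for values side by side. In all groups, pieces of hypocotyl from seedlings raised in the dark spent 4 days on callus induction medium and 10 days on shoot induction medium before RNA was taken. Strand-specific mRNA libraries were sequenced, and levels are given as CPM, counts scaled to the size of their library after adjustment by TMM factors.

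Callus is unorganised, dividing tissue that grows from plant explants on media containing auxin and cytokinin. Callus from hypocotyls resembles the early root primordium, and on shoot induction medium it turns green, forms new meristems and makes leaves with an epidermis, stomata and chloroplast-bearing mesophyll. PNET1 is a transmembrane protein of the plant nuclear envelope, related to vertebrate TMEM209 and found with the nuclear pore complex. The pore carries proteins and RNA between nucleus and cytoplasm, and its parts are also linked with gene activity in plants.

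Total counts were 16946951 to 18112167 per library in the mutant and 16890848 to 19493969 in wild type, and TMM factors over the 9 libraries were 0.989 to 1.015. Pairs of replicate libraries were further apart than counting error alone allows. Chi-square divided by its degrees of freedom was 2.46 to 2.85 in the mutant, 3.54 to 5.15 in wild type and 3.55 to 7.36 in the overexpression line. Ribosomal RNA genes, part of which escapes selection of mRNA, took 0.0673% of counts in the mutant and 0.162% in wild type, with no overlap of libraries, and the part of this difference in the results below was not tested. The labels do not say whether replicates were separate cultures, so p-values cover the spread between these libraries alone, and that spread may be technical. PNET1, taken as AT1G07970 on the minus strand of TAIR10 chromosome 1, 2469218 to 2472806, had 27, 19 and 25 counts in the mutant libraries, against 630, 524 and 544 in wild type. All mutant libraries were thus far below all wild-type libraries (log2 fold change -4.52, SE 0.10, edgeR quasi-likelihood adjusted p = 7.6e-15). AT1G07960 overlaps this gene on the other strand, and sources used here do not state how strand was handled in counting. Values of any gene with such an overlap are therefore uncertain. Callus markers were present and 5 of 9 tested rose while 1 fell, summing to 801 to 860 CPM in the mutant and 640 to 691 CPM in wild type. The callus rise AIL7 was not called without mutant replicate 1 or 2 or wild-type replicate 2 or 3 (edgeR adjusted p = 0.0816 to 0.153). RAP2-4 was not called without mutant replicate 1 or 2 or wild-type replicate 1 or 2 (edgeR adjusted p = 0.0582 to 0.126). Of 7 shoot meristem markers CLV3 and ESR1 rose, but the call of ESR1 was lost without any single library except wild-type replicate 1 (adjusted p = 0.0685 to 0.114). Of 5 xylem markers tested 2 rose, and 1 of 3 endodermis, 1 of 3 trichome and 1 of 1 pollen markers fell. Over all tested genes 12.6% rose and 17.4% fell, so 1 or 2 calls in such short lists say little about a cell type. The 3 root hair markers tested had a median log2 fold change of 0.0983. The root cap marker BRN2 and the seed markers were too low to test, with CRA1, PAP85 and OLEO1 at 0. The listed markers SMB and BRN1 of root cap, PDF2 of epidermis, VND6 of xylem and LAT52 of pollen were not matched to a gene.

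The mutant differed from wild type in many genes, and the falls were larger than the rises. Of 19698 genes tested, 2480 rose (12.6%) and 3428 fell (17.4%), so 30.0% were called by edgeR's quasi-likelihood test at a Benjamini-Hochberg adjusted p under 0.05. A change of at least 2-fold was rare among the rises, with 79 genes (0.401% of those tested), and more common among the falls, with 1016 genes (5.16%). Most rises were small: 946 were under 1.2-fold, and 3 exceeded 4-fold, while 131 falls did. The median size of a called change was 0.32 on the log2 scale for genes that rose and 0.63 for genes that fell. The median over all tested genes was 0.00. Without wild-type replicate 3, the count of 2-fold rises was 133 and that of 2-fold falls was 1143.

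**Figure D1:**
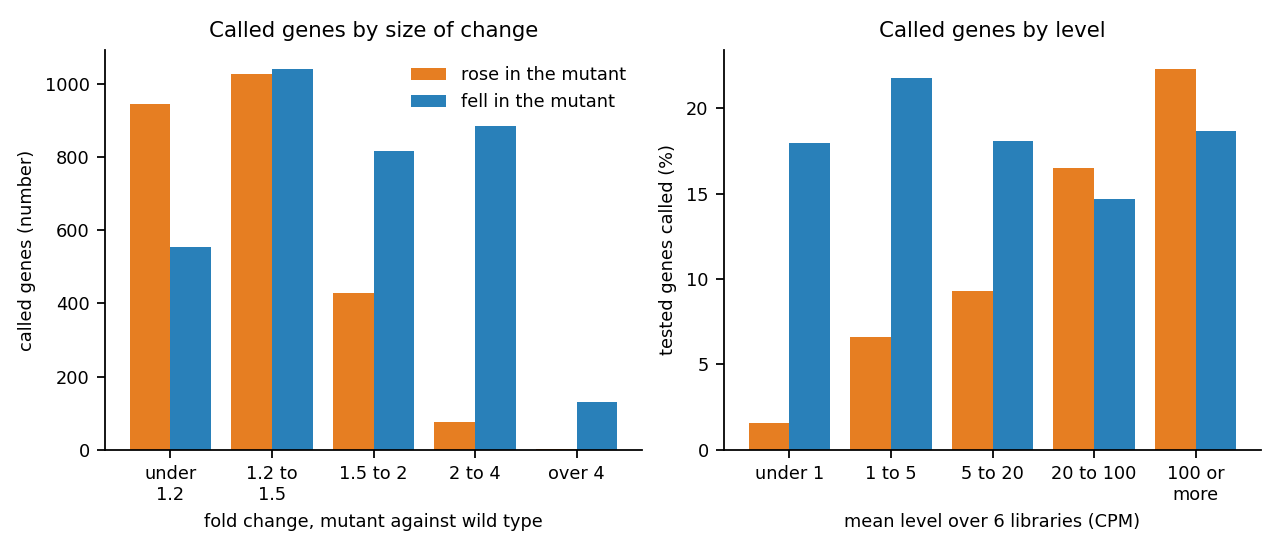
Called genes by the size of their fold change (left, number of genes) and by mean level over the 6 libraries in CPM (right, percent of tested genes), for genes that rose (orange) and fell (blue) in the mutant. Above 2-fold the falls outnumber the rises, with 885 falls and 76 rises between 2-fold and 4-fold.

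The direction of the changes varied with the level of the gene. Among the 2139 genes at 100 CPM or more, 22.3% rose and 18.7% fell, and 39 of the falls were at least 2-fold. Among the 1317 genes under 1 CPM, 1.59% rose and 18.0% fell, with 19 rises and 230 falls of at least 2-fold. A gene this low can pass the filter by its level in a single group, the overexpression line included, so these shares depend on the filter. With only the 6 mutant and wild-type libraries, 19303 genes were tested, of which 81 rose and 940 fell at least 2-fold. Low genes rest on few counts, which limits the small changes that can be called there. The plot of called genes by size and level shows both patterns.

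Among called genes at 5 CPM or more in the higher group, without overlap of libraries, the largest falls were in genes of varied function. This lack of overlap between mutant and wild-type libraries was a condition of choice and not a result. Transcription factors named for the largest rises and falls met the same condition. Members of families are named below only at 2 CPM or more, so that some low members changed further than those named. Every gene named with a value from here on was called by this test, unless stated otherwise. ESM1, a GDSL-type protein that favours isothiocyanates in glucosinolate breakdown (chromosome 3, 4729399 to 4731847), had 32.9, 32.9 and 29.8 CPM in the mutant libraries, against 188, 195 and 149 CPM in the wild-type libraries. The groups were far apart (log2 fold change -2.48, SE 0.31, edgeR quasi-likelihood adjusted p = 0.0015). Of the 50-base words in the gene 17.7% recur elsewhere in the genome, so part of its counts may be shared with copies. AT2G10940, described in the files by its locus alone, had 40.2, 37.2 and 28.6 CPM in the mutant libraries, against 210.0, 204 and 154 CPM in the wild-type libraries. It was likewise lower in every mutant library (-2.42, SE 0.25, edgeR adjusted p = 6.3e-04). BCA1, a chloroplast carbonic anhydrase, averaged 8.17 ± 1.52 CPM in the mutant, against 42.4 ± 6.18 CPM in wild type (SD, n = 3 each, as in all such values). BAM5, a starch-cleaving beta-amylase, averaged 3.24 ± 1.25 CPM in the mutant, against 17 ± 1.11 CPM in wild type. Further falls in this group, in log2 units, were -2.68 for the light-harvesting gene LHB1B1, -2.94 for AT5G20790, of unknown function, -2.65 for AT1G73010, an inorganic pyrophosphatase, -2.41 for the wall protein PRP2, -2.33 for OEP6 and -2.31 for AT2G45180, described by its locus alone. PME17, a pectin methylesterase, fell by 2.42 with an edgeR adjusted p of 0.041, but its adjusted p was 0.0625 to 0.128 without any 1 mutant library and 0.0828 and 0.0786 without wild-type replicate 1 (log2 fold change -1.78) and 2. It was 0.106 with the replicate block.

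Apart from PNET1, the largest fall within these limits was in AT5G26270, a gene of unknown function at chromosome 5, 9206375 to 9208136. It had 1.82, 2.36 and 1.54 CPM in the mutant libraries, against 59.5, 14.9 and 32.2 CPM in the wild-type libraries. The wild-type libraries were all above the mutant but spread widely among themselves (log2 fold change -4.23, SE 0.67, edgeR quasi-likelihood adjusted p = 0.0041), and the log2 fold change was -3.63 without wild-type replicate 1. The overexpression line was low as well, at 2.72, 1.37 and 1.73 CPM.

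The largest rise by the same limits was in AT1G75945, for which the files give no description (chromosome 1, 28515245 to 28515916). Its level was 12.2, 11.4 and 13.6 CPM in the mutant libraries, against 1.4, 1.62 and 1.59 CPM in the wild-type libraries. The mutant libraries agreed closely and lay well above wild type (log2 fold change 3.01, SE 0.16, edgeR quasi-likelihood adjusted p = 2.5e-09), while the overexpression line had 0.444, 0.458 and 0.324 CPM. AT5G45990, described as a crooked neck protein of the kind that assembles spliceosomes, averaged 26.4 ± 0.71 CPM in the mutant, against 11.7 ± 0.104 CPM in wild type. ARGOS and its relative ARL, which promote organ growth, averaged 39.8 ± 5.3 CPM in the mutant, against 17 ± 3.94 CPM in wild type for ARGOS. ARL averaged 81 ± 5.91 CPM in the mutant, against 37.7 ± 4.56 CPM in wild type. GA1 makes the first committed precursor of gibberellins and rose by 1.22 on the log2 scale. GRXC14, a glutaredoxin of the plant-specific CC type, rose by 1.2. The other large rises, in log2 units, were 1.44 in the stem-cell peptide gene CLV3, 1.2 in AT1G47271, 1.13 in HVA22F, 1.13 in the carboxylesterase gene CXE17 and 1.12 in AT2G44070, which overlaps a gene on the other strand. The long noncoding RNA AT1G25098 was called at 2.17, but 99.4% of its 50-base words occur elsewhere in the genome and its adjusted p was above 0.05 without mutant replicate 1 (0.051) and without wild-type replicates 1 to 3 (0.108, 0.0841 and 0.121). Its log2 fold change was 1.53 without mutant replicate 3, and the replicate block gave an adjusted p of 0.105.

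**Figure D2:**
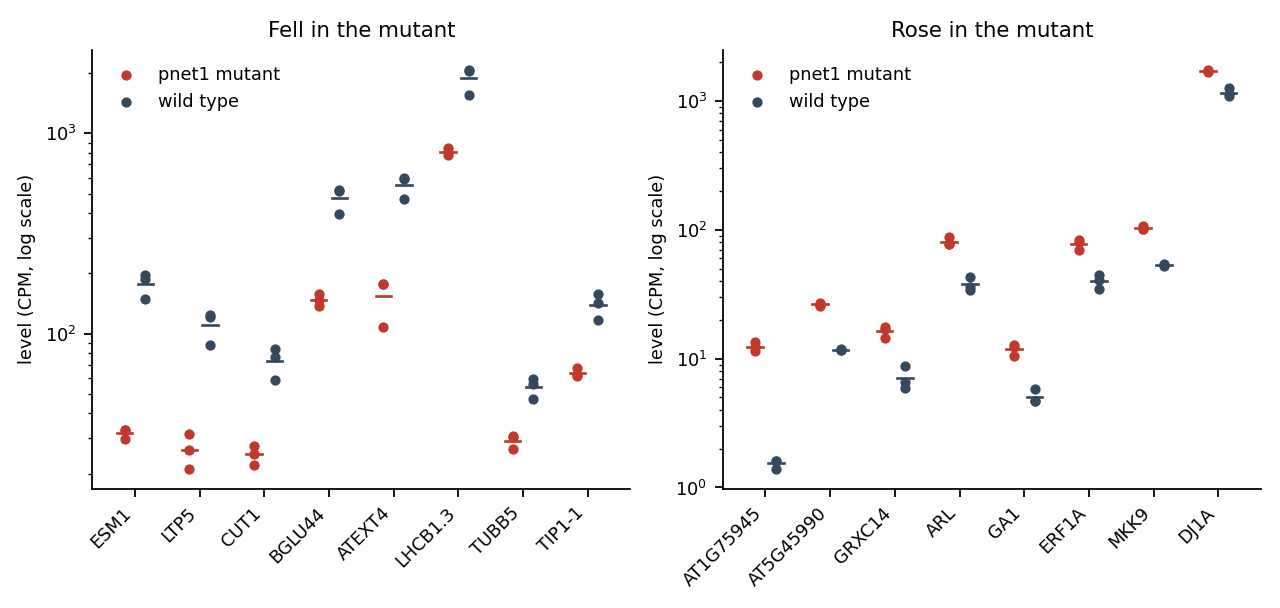
Level in CPM (log scale) of 8 genes that fell and 8 that rose, in each of 3 pnet1 mutant libraries (red, left of each pair) and 3 wild-type libraries (dark, right); points are libraries and lines are means. Lack of overlap between the groups was a condition for choosing the largest falls and rises, ESM1 among them. ESM1 was at 29.8 to 32.9 CPM in the mutant and 149 to 195 CPM in wild type.

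Genes for chloroplast proteins formed the largest group of falls among the families counted. Of 897 tested genes described as chloroplastic, 486 fell (54.2%) and 33 rose (3.68%), against 17.4% and 12.6% of all tested genes. Their median log2 fold change was -0.26, and 73 of them fell at least 2-fold. The group's share of all counts was 4.49% in the mutant and 5.57% in wild type. The falls were not limited to the photosystem, light-harvesting, thylakoid and ribosomal families. Of the 755 that remain after removing photosystem, light-harvesting, thylakoid, ribosomal and pentatricopeptide repeat proteins, 394 fell and 32 rose. These 755 were not sorted by function and can still include other genes that serve photosynthesis.

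Within this group, the light-harvesting proteins, which hold antenna chlorophyll, fell in 22 of 23 tested genes with a median of -0.97. LHCB1.3, the most abundant of those named, had 783, 841 and 803 CPM in the mutant libraries, against 2070, 2038 and 1549 CPM in the wild-type libraries. Each mutant library was below each wild-type library (log2 fold change -1.22, SE 0.14, edgeR quasi-likelihood adjusted p = 8.1e-04). Per length, LHCB1.3 stood at 655 ± 23.7 FPKM in the mutant, against 1520 ± 235 FPKM in wild type. LHB1B1 stood at 2.73 ± 0.793 FPKM in the mutant, against 17.5 ± 5.02 FPKM in wild type. LHCB2.4 averaged 3.61 ± 0.883 CPM in the mutant, against 15.5 ± 3.42 CPM in wild type and CAB2 averaged 57.9 ± 1.75 CPM in the mutant, against 200.1 ± 48.4 CPM in wild type. These genes are near-identical copies in part: 13.4% of the 50-base words of LHB1B1, 16.9% of those of LHCB1.3 and 20.6% of those of CAB2 recur elsewhere, so the split of reads between them is uncertain. LHCB1.3, LHCB2.4, PNSL3, PNSB1, RPL15 and OVA2 also overlap a gene on the other strand. Nuclear genes described as photosystem subunits, LHCB2.1 among them, fell in 21 of 21 tested, with a median of -0.95, led by PSAD2 of photosystem I at 19.2 ± 0.715 CPM in the mutant, against 53.9 ± 8.09 CPM in wild type. PSBS, which dissipates excess light energy, averaged 86.6 ± 5.09 CPM in the mutant, against 200.1 ± 21.5 CPM in wild type. Of the 5 tested photosystem genes encoded in the plastid, 3 fell.

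Thylakoid and NDH proteins, of which the NDH complex carries electron flow around photosystem I, fell in 20 of 26 genes and rose in 1, with a median of -0.86. PNSB1, a subunit of the photosynthetic NDH complex, averaged 1.65 ± 0.872 CPM in the mutant, against 7.01 ± 1.18 CPM in wild type. Its relatives PNSL2 and PNSL3 were low, at 1.6 to 2.75 CPM in wild type for PNSL2, with log2 fold changes of -2.64 and -2.19, and the value for PNSL2 was -3.42 without mutant replicate 2. Chloroplast ribosomal proteins, part of the plastid's translation machinery, fell as well. Of 28 tested nuclear genes for chloroplast ribosomal proteins, 26 fell by edgeR's test, with a median of -0.81. AT5G47190, a protein of the large subunit, had 26.1, 24.5 and 22.8 CPM in the mutant libraries, against 54.1, 55.1 and 46.7 CPM in the wild-type libraries. The wild-type libraries were clearly above the mutant (log2 fold change -1.09, SE 0.11, edgeR quasi-likelihood adjusted p = 4.0e-05). RPL15 averaged 60.1 ± 2.45 CPM in the mutant, against 124 ± 18.6 CPM in wild type. Aminoacyl-tRNA synthetases, several of which serve the organelles, fell in 13 of 54 genes (24.1%, against 17.4% of all tested genes). Without wild-type replicate 1 they fell in 8, a share near that of all 19857 genes tested in that fit, of which 2895 fell. OVA2, an organellar synthetase, averaged 41.6 ± 0.695 CPM in the mutant, against 56.7 ± 3.53 CPM in wild type.

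Pentatricopeptide repeat proteins, which process organelle RNA, changed less as a family. Of 408 tested, 30 fell (7.35%) and 2 rose (0.49%), both below the shares of all genes, and 19 fell without mutant replicate 1. Those described as chloroplastic held 18 of the 30 falls: 18 of 55 fell (32.7%, against 17.4% of all tested genes), with a median of -0.21. Genes described as mitochondrial also changed less than average, with 55 of 522 lower (36 without wild-type replicate 2) and 9 higher. Of 33 tested plastid-encoded genes 17 fell, and this class took 0.00260% of counts in the mutant and 0.00563% in wild type. The class includes plastid genes for ribosomal RNA, and outside ribosomal RNA genes the difference was smaller, at -0.002244 percentage points. These values rest on libraries of mRNA, in which plastid transcripts are scarce, and an exact permutation test on 3 against 3 libraries cannot go below the two-sided p of 0.1 seen here.

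Markers of leaf mesophyll moved with this group: all 7 fell, and their summed level was 838 to 927 CPM in the mutant libraries, against 1794 to 2351 CPM in wild type. The part of such cells in the fall of chloroplast genes was not tested, and in bulk tissue fewer cells of a type and less RNA per cell cannot be told apart. Mesophyll markers and light-harvesting genes overlap as lists.

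**Figure D3:**
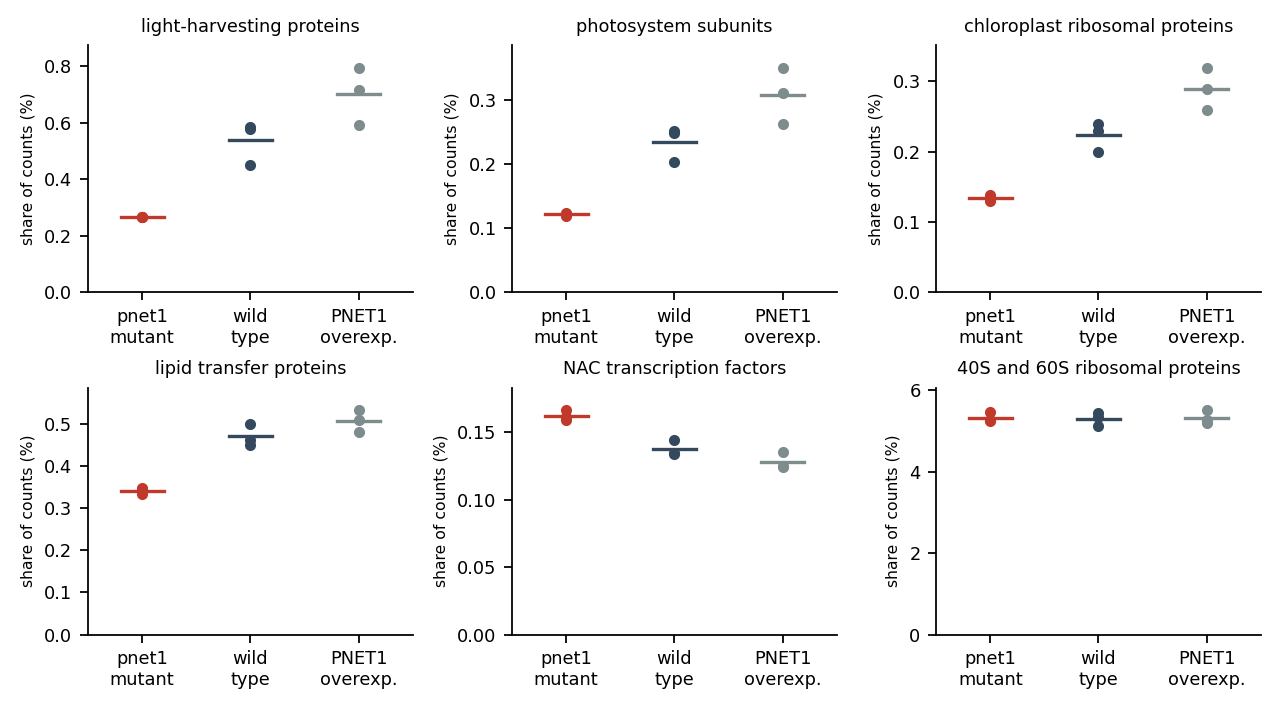
Share of all counts (%) taken by 6 gene families in each pnet1 mutant, wild-type and PNET1 overexpression library; points are libraries and lines are means. Light-harvesting genes average 0.266% in the mutant and 0.538% in wild type, whereas 40S and 60S ribosomal proteins average 5.33% in the mutant and 5.31% in wild type.

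The 250 bases before the start of light-harvesting and photosystem genes were searched on both strands for letters bound by known regulators of these genes. CCAATC, the core bound by GLK factors, was present in 10 of the 41 promoters of members that fell (24.4%, Wilson 95% interval 13.8 to 39.3), against 10.4% of 19197 promoters of all tested protein-coding genes. CACGTG, the G-box bound by light-signalling bZIP and bHLH factors, was present in 9 of 41 (22%, interval 12 to 36.7), against 7.32%. Among the 991 promoters of all genes that fell at least 2-fold, CCAATC was in 10.3% and CACGTG in 7.06%, both near the shares of all genes. Other motifs were counted in several gene groups, so those given here and below are a selection. In the same 41 promoters GCCGCC, bound by ERF factors, was in 3 (7.32%, against 1.94% of all tested protein-coding genes). Promoters of related genes share sequence and are not independent. The windows around the match in the 3 carriers of CCAATC at 2 CPM or more with the largest falls are shown to let the arrangement be compared, 5′ to 3′ on the gene's strand in TAIR10, with CCAATC in capitals.
LHCB2.4: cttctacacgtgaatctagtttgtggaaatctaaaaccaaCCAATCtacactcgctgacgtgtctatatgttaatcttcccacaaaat
LHCB2.2: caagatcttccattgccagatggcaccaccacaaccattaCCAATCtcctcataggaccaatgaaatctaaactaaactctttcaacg
LHCB2.1: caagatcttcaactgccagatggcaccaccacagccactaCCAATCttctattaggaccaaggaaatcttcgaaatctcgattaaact
The windows lie at chr3:10255812-10255899 on the plus strand, chr2:1800478-1800565 on the minus strand and chr2:1824492-1824579 on the minus strand. The match begins 54, 53 and 59 bases before the annotated start in LHCB2.4, LHCB2.2 and LHCB2.1. LHCB2.2 and LHCB2.1 share most of the letters around it, and LHCB2.4 also holds the G-box letters in lower case. A match is a description of letters and not a binding site.

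**Figure D4:**
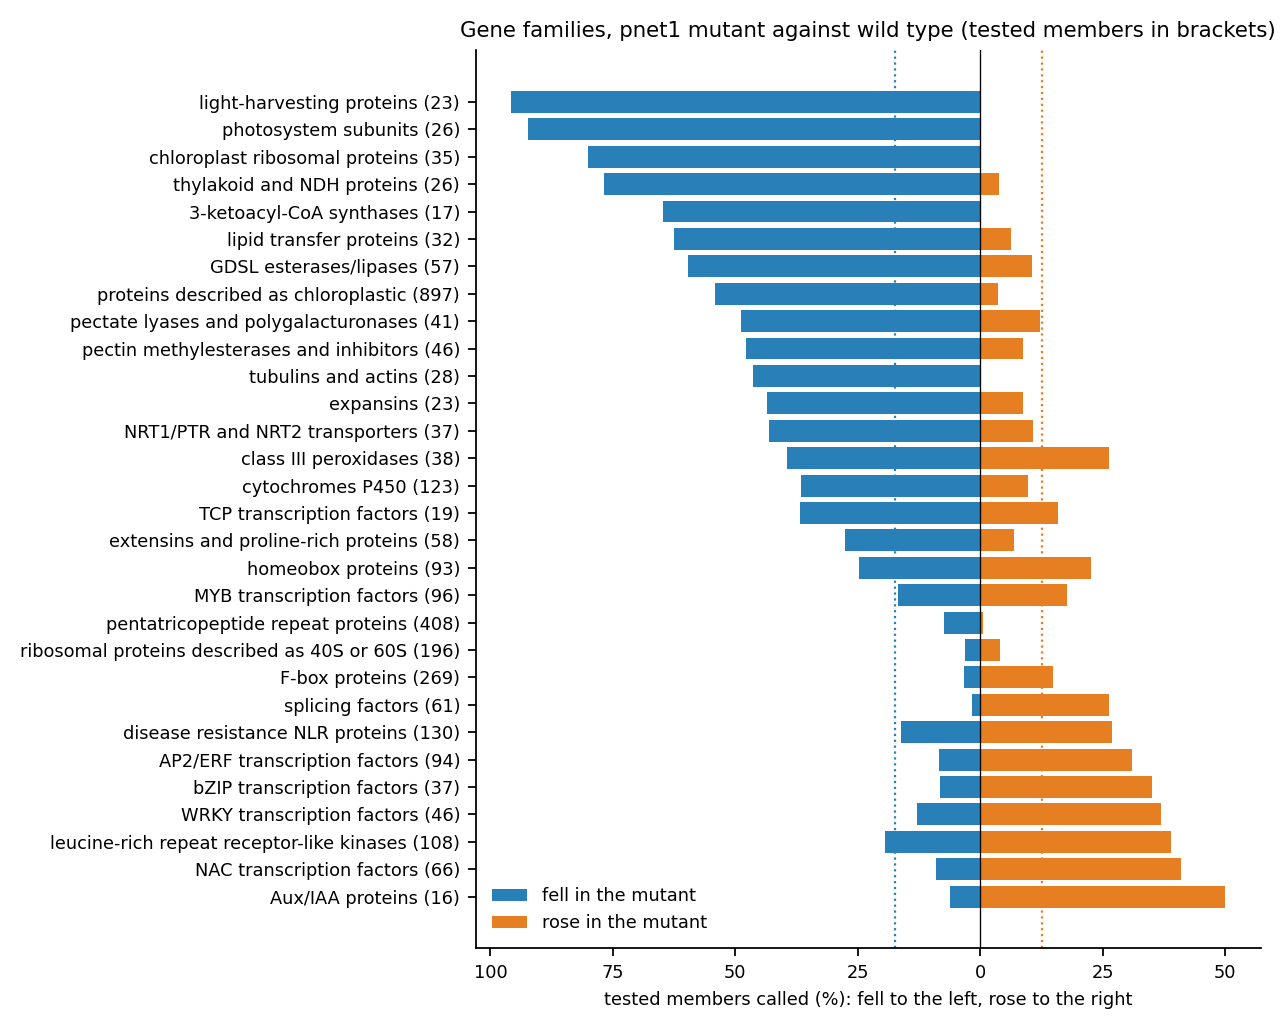
Percent of tested members that fell (blue, to the left) and rose (orange, to the right) in the pnet1 mutant against wild type for 30 gene families, with the number of tested members in brackets. Dotted lines mark the shares over all 19698 tested genes, 17.4% for falls and 12.6% for rises.

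Genes for surface lipids also fell widely. The plant epidermis covers itself with cutin and wax, made from very long acyl chains and moved to the wall by lipid transfer proteins and ABC transporters. Of 17 tested 3-ketoacyl-CoA synthases, which extend these chains, 11 fell (64.7%), with a median of -0.99. KCS3 had 2.57, 3.19 and 2.75 CPM in the mutant libraries, against 11.3, 9.4 and 10.4 CPM in the wild-type libraries. Mutant and wild-type libraries were well separated (log2 fold change -1.87, SE 0.14, edgeR quasi-likelihood adjusted p = 3.9e-07). CUT1, the synthase of stem wax, averaged 25 ± 2.76 CPM in the mutant, against 72.8 ± 13 CPM in wild type. Of 32 lipid transfer proteins, 20 fell (62.5%) and 2 rose, and 12 of the falls were at least 2-fold. LTP5 averaged 26.3 ± 5.13 CPM in the mutant, against 111 ± 19.9 CPM in wild type, and AT1G62510 and LTP7 had log2 fold changes of -2.31 and -1.66.

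GDSL esterases and lipases, a large family that includes cutin synthases, fell in 34 of 57 tested genes (59.6%) and rose in 6, with a median of -0.91 and 23 falls of at least 2-fold. After ESM1, the largest falls of this family were in AT4G28780, at 3.28 ± 0.403 CPM in the mutant, against 15 ± 3.34 CPM in wild type, and in AT5G18430, at 0.494 ± 0.0375 CPM in the mutant, against 2.24 ± 0.421 CPM in wild type. Cytochromes P450, oxidases of many pathways, fell in 45 of 123 genes and rose in 12, and CYP71B26, the first of them at 2 CPM or more, had a log2 fold change of -2.22. ABC transporters, which serve many substrates, changed both ways: of 76, 20 fell (26.3%, against 17.4% of all genes) and 13 rose (17.1%, against 12.6%; 8 without wild-type replicate 2). ABCG19 averaged 8.61 ± 0.991 CPM in the mutant, against 24.7 ± 3.78 CPM in wild type. ABCG13, an exporter of flower cutin precursors, had a log2 fold change of -1.26.

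Markers of the epidermis fell in 6 of 6 cases, summing to 535 to 614 CPM in the mutant libraries and 1176 to 1481 CPM in wild type. The guard cell lineage fell in 7 of 7, at 14.0 to 19.1 CPM in the mutant and 37.5 to 47.8 CPM in wild type. The part of these cells in the lipid result was not tested. Several of the markers are themselves wax or cutin genes.

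The L1 box, TAAATGCA or TAAATGTA, is bound by class IV homeodomain-leucine zipper factors that are active in the epidermis. It occurred in 7.77% of the promoters of 991 protein-coding genes that fell at least 2-fold (Wilson 95% interval 6.26 to 9.6), against 4.5% of all tested protein-coding genes and 4.4% of those that rose. Within the falling lipid transfer, GDSL and 3-ketoacyl-CoA synthase genes it occurred in 5 of 65 (7.69%, interval 3.33 to 16.8). The 3 GDSL genes below fell the most among the carriers at 2 CPM or more and are shown with the box in capitals, on the gene's strand, so that TACATTTA is the box read on the other strand.
AT5G18430: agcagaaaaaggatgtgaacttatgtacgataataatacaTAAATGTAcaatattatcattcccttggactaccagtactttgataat
AT5G33370: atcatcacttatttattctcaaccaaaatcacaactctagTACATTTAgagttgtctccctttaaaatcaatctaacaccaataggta
AT1G29660: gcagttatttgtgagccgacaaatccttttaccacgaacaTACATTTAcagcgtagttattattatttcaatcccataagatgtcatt
They lie at chr5:6112177-6112264 and chr5:12604859-12604946 on the minus strand and chr1:10371543-10371630 on the plus strand of TAIR10. The genes had log2 fold changes of -2.17 (AT5G18430), -2.16 (AT5G33370) and -1.53 (AT1G29660). The box starts 185, 74 and 92 bases before the annotated start, in that order.

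Cell wall genes fell in several families, though some families moved in both directions. Pectin is the gel of the primary wall, and enzymes that demethylate or cut it set its stiffness. Of 46 tested pectin methylesterases and their inhibitors 22 fell (47.8%) and 4 rose, and of 41 pectate lyases and polygalacturonases 20 fell (48.8%) and 5 rose. Pectin methylesterases and inhibitors took 0.354% of counts in the mutant and 0.3995% in wild type, without overlap of libraries. Pectate lyases and polygalacturonases took 0.624% in the mutant and 0.614% in wild type, and there the libraries overlapped. The pectate lyase AT5G63180 had 15.6, 20.6 and 17.6 CPM in the mutant libraries, against 45.6, 47.9 and 36.8 CPM in the wild-type libraries. Its mutant libraries were all below wild type (log2 fold change -1.28, SE 0.13, edgeR quasi-likelihood adjusted p = 1.0e-04). AT1G60590, a pectin lyase-like protein, and AT1G67750, a further pectate lyase, had log2 fold changes of -1.53 and -1.13. PMEI11, an inhibitor, averaged 2.29 ± 0.53 CPM in the mutant, against 7.02 ± 1.21 CPM in wild type.

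Expansins, which loosen walls, fell in 10 of 23 genes and rose in 2. Their summed share of counts was nevertheless higher in the mutant, at 0.431% against 0.405% in wild type, without overlap of libraries. EXPA11 averaged 0.472 ± 0.167 CPM in the mutant, against 2.78 ± 0.739 CPM in wild type, and EXPA5 averaged 2.53 ± 0.714 CPM in the mutant, against 8.82 ± 0.897 CPM in wild type. The risers ATEXPA1 and EXPB3 were among the most abundant transcripts, with log2 fold changes of 0.14 and 0.17. Both calls depended on single libraries: the edgeR adjusted p was 0.0664 and 0.0718 for ATEXPA1 without mutant replicate 2 and without wild-type replicate 1, and 0.0573 for EXPB3 without wild-type replicate 2. Extensins and proline-rich proteins, which are structural proteins of the wall, fell in 16 of 58 and rose in 4. ATEXT4 had 108, 178 and 178 CPM in the mutant libraries, against 599.9, 593 and 472 CPM in the wild-type libraries. Mutant replicate 1 was the lowest, and all mutant libraries were below wild type (log2 fold change -1.85, SE 0.28, edgeR quasi-likelihood adjusted p = 0.0032), while 11.8% of its 50-base words recur elsewhere. Arabinogalactan and fasciclin-like proteins fell in 11 of 31, led by AGP17 at 1.1 ± 0.15 CPM in the mutant, against 4.75 ± 0.20 CPM in wild type. Among class III peroxidases, secreted enzymes that crosslink wall polymers, 15 of 38 fell and 10 rose, with 9 falls without wild-type replicate 1. PER29 averaged 0.984 ± 0.273 CPM in the mutant, against 3.98 ± 0.369 CPM in wild type. Xyloglucan endotransglucosylases were split, with 7 of 25 lower and 6 higher. Of 14 cellulose synthases and related proteins 5 fell and 1 rose, and CSLG3 averaged 4.61 ± 0.519 CPM in the mutant, against 11.5 ± 1.41 CPM in wild type.

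Genes of the cytoskeleton fell by small amounts. Of 28 tested tubulins and actins 13 fell (46.4%), and among the alpha and beta tubulins 9 of 15 fell. The falls were small, with a median of -0.15 over the 28 genes. TUBB5 had 26.5, 30.5 and 30.8 CPM in the mutant libraries, against 56.3, 59.6 and 47.4 CPM in the wild-type libraries. This was the largest called change among the members at 2 CPM or more (log2 fold change -0.89, SE 0.12, edgeR quasi-likelihood adjusted p = 4.7e-04), and TUBB1, which overlaps a gene on the other strand, and ACT11 followed with log2 fold changes of -0.79 and -0.59. Kinesins, motors that run on microtubules, rose in 8 of 46 and fell in 5 (3 without mutant replicate 1 or without wild-type replicate 2).

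Many genes for nitrate and sugar transporters fell, though the summed share of counts of each family was higher in the mutant. Of 37 tested members of the NRT1/PTR and NRT2 families 16 fell (43.2%) and 4 rose, 12 of the falls at least 2-fold. NPF2.13, which loads nitrate into the phloem, had 9.76, 9.74 and 9.61 CPM in the mutant libraries, against 32.5, 27.8 and 21.3 CPM in the wild-type libraries. The mutant libraries were nearly equal to one another and below wild type (log2 fold change -1.49, SE 0.18, edgeR quasi-likelihood adjusted p = 3.5e-04). NRT2.3 and NPF3.1, which overlaps a gene on the other strand, had log2 fold changes of -2.64 and -1.77. Sugar and SWEET transporters fell in 11 of 28 and rose in 6. The NRT1/PTR and NRT2 families took 0.111% of all counts in the mutant and 0.0951% in wild type. Sugar and SWEET transporters took 0.124% in the mutant and 0.105% in wild type, and libraries overlapped in neither case. Among 17 aquaporins, which are water channels, 5 fell (29.4%) and 3 rose (17.6%), few genes to set against the 17.4% and 12.6% of all genes. TIP1-1 of the vacuole membrane averaged 63.4 ± 3.18 CPM in the mutant, against 139 ± 20.7 CPM in wild type. PIP2-6 of the plasma membrane averaged 27 ± 3.1 CPM in the mutant, against 59 ± 7.08 CPM in wild type. Its relative PIP2-5 went the other way, at 329 ± 17.8 CPM in the mutant, against 211 ± 12 CPM in wild type.

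Genes of phosphate supply included SPX proteins, sensors of cellular phosphate status, and purple acid phosphatases. Of 22 tested, 11 fell (50.0%) and 1 rose, and 7 fell without mutant replicate 2. PAP17 had 8.39, 5.02 and 5.44 CPM in the mutant libraries, against 24.6, 29 and 23.5 CPM in the wild-type libraries. The mutant libraries were far below wild type (log2 fold change -2.03, SE 0.18, edgeR quasi-likelihood adjusted p = 3.1e-05), though PAP17 overlaps a gene on the other strand. SPX1, a phosphate-dependent inhibitor of the transcription factor PHR1, averaged 17.8 ± 0.507 CPM in the mutant, against 33.6 ± 1.56 CPM in wild type. The P1BS element, GNATATNC, is the site of PHR1 and its relatives, and it reads the same way on both strands. It was found in 3 of the 11 promoters of members that fell (27.3%, Wilson 95% interval 9.75 to 56.6), against 5.39% of all tested protein-coding genes. The 3 sequences below show the element in capitals. PAP8 and AT1G13750 are the carriers among these 11 at 2 CPM or more, the remaining carrier being lower, and AT1G73010, an inorganic pyrophosphatase outside the family, is the carrier among the 12 largest falls.
PAP8: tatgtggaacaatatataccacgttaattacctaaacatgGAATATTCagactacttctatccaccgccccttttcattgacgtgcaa
AT1G13750: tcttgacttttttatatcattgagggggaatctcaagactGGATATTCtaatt
AT1G73010: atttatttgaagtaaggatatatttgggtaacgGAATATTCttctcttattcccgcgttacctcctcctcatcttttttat
They lie at chr2:399436-399523, chr1:4718270-4718322 and chr1:27466518-27466598, each on the minus strand of TAIR10. The log2 fold changes of these genes were -1.29 for PAP8, -0.48 for AT1G13750 and -2.65 for AT1G73010. The element starts 145, 13 and 217 bases before the annotated start, in the same order.

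Secreted defence proteins and surface receptors did not move together. Chitinases and pathogenesis-related proteins fell in 13 of 31 (41.9%) and rose in 7 (4 without wild-type replicate 2). AT2G43590, an endochitinase, had 149, 204 and 119 CPM in the mutant libraries, against 482, 549 and 399 CPM in the wild-type libraries. The groups were clear of each other although the mutant libraries differed among themselves (log2 fold change -1.6, SE 0.26, edgeR quasi-likelihood adjusted p = 0.0044). ChiC, a class V chitinase, averaged 3.85 ± 0.795 CPM in the mutant, against 12.4 ± 0.372 CPM in wild type. Berberine bridge enzyme-like oxidases fell in 8 of 18. Beta-glucosidases, which activate stored defence compounds and hormones, fell in 10 of 30 and rose in 7 (4 without mutant replicate 2 or without wild-type replicate 2). BGLU44 averaged 147 ± 10.2 CPM in the mutant, against 477 ± 71.7 CPM in wild type, whereas BGLU28 averaged 41.8 ± 1.05 CPM in the mutant, against 23.7 ± 4.62 CPM in wild type. Small signalling peptides of the CLE, EPF and RALF types fell in 7 of 22 tested, with EPFL9, the mesophyll signal that promotes stomata, at 0.797 ± 0.147 CPM in the mutant, against 2.77 ± 0.783 CPM in wild type.

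Receptor kinases with leucine-rich repeats and NLR proteins rose more often than the 12.6% of all tested genes. Leucine-rich repeat receptor-like kinases rose in 42 of 108 tested genes (38.9%) and fell in 21, though 6 of the falls were at least 2-fold. RFK1, the largest fall, averaged 0.491 ± 0.10 CPM in the mutant, against 2.4 ± 0.885 CPM in wild type. Disease resistance NLR proteins, intracellular sensors of pathogens, rose in 35 of 130 (26.9%) and fell in 21. Their larger changes were mostly falls, with 6 falls and 1 rise of at least 2-fold. RLM3 was among the falls, at 20.7 ± 2.47 CPM in the mutant, against 61.9 ± 9.99 CPM in wild type. Cysteine-rich receptor-like kinases fell in 8 of 33 (5 without wild-type replicate 1) and rose in 1. Among those at 2 CPM or more CRK22 had the largest log2 fold change, -1.85, and 11.6% of its 50-base words recur elsewhere.

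Transcription factors differed by family. NAC factors rose in 27 of 66 tested genes (40.9%) and fell in 6, with a median of 0.20. The members with the largest changes were NAC043, an activator of secondary walls, which fell to 1.49 ± 0.377 CPM in the mutant, against 3.85 ± 0.661 CPM in wild type, and NAC035, which overlaps a gene on the other strand, at 1.59 ± 0.72 CPM in the mutant, against 3.87 ± 0.731 CPM in wild type. NAC086, a regulator of sieve element maturation, had 5.71, 4.9 and 5.77 CPM in the mutant libraries, against 3.22, 2.33 and 2.5 CPM in the wild-type libraries. All its mutant libraries were above wild type (log2 fold change 1.02, SE 0.20, edgeR quasi-likelihood adjusted p = 8.1e-04). NTL8, a membrane-tethered NAC factor, averaged 3.0 ± 0.0817 CPM in the mutant, against 1.47 ± 0.31 CPM in wild type. The 8 phloem markers of the fixed list, which include NAC086, all rose (NAC045 was not called without mutant replicate 3, edgeR adjusted p = 0.0817), summing to 841 to 890 CPM in the mutant and 535 to 635 CPM in wild type, and their part in the NAC result was not tested.

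AP2/ERF factors, many of which respond to ethylene, wounding or stress, rose in 29 of 94 (30.9%) and fell in 8, with a median of 0.18. RAP2-6, which responds to wounding, averaged 2.17 ± 0.336 CPM in the mutant, against 0.759 ± 0.146 CPM in wild type. ERF1A had 83.1, 80.3 and 69.5 CPM in the mutant libraries, against 44.6, 34.9 and 41 CPM in the wild-type libraries. The groups were separate (log2 fold change 0.95, SE 0.19, edgeR quasi-likelihood adjusted p = 0.01). ERF1B, which joins ethylene and jasmonate signals, averaged 21.9 ± 2.12 CPM in the mutant, against 11.4 ± 1.03 CPM in wild type. HRE1, a regulator of the response to low oxygen, had a log2 fold change of 1.24 and overlaps a gene on the other strand. The fall of SNZ, an AP2 factor that represses flowering, was -1.15 in log2 units. WRKY factors, regulators of defence, rose in 17 of 46 (37.0%) and fell in 6, but their largest changes were falls, at 1.0 ± 0.183 CPM in the mutant, against 3.44 ± 0.49 CPM in wild type for WRKY44, a regulator of trichomes and seed coat. WRKY29, which overlaps a gene on the other strand, had a log2 fold change of -1.58, WRKY8 one of -1.44 and WRKY35 one of 0.92. bZIP factors rose in 13 of 37 (8 without mutant replicate 1) and fell in 3, BZIP61, which overlaps a gene on the other strand, having the largest change at 1.71 ± 0.25 CPM in the mutant, against 4.92 ± 0.718 CPM in wild type.

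Among homeobox proteins 21 of 93 rose and 23 fell, 13 of the falls being at least 2-fold. At 2 CPM or more, the largest falls were HDG8, at 3.07 ± 0.278 CPM in the mutant, against 10.2 ± 1.66 CPM in wild type, BLH4, with a log2 fold change of -1.6, and HDG5, at 2.6 ± 0.182 CPM in the mutant, against 7.64 ± 0.466 CPM in wild type; HDG8 and HDG5 are class IV factors of the epidermis. ATHB-17, a class II factor, went up, with 25.2, 23.4 and 22.1 CPM in the mutant libraries, against 10.8, 11.8 and 14.1 CPM in the wild-type libraries. No library of one group entered the range of the other (log2 fold change 0.94, SE 0.12, edgeR quasi-likelihood adjusted p = 2.1e-05). TCP factors fell in 7 of 19 and rose in 3. TCP4, which ends cell division in growing leaves, had 7.3, 9.15 and 7.75 CPM in the mutant libraries, against 21.5, 22.4 and 18.3 CPM in the wild-type libraries. Its libraries were well apart (log2 fold change -1.36, SE 0.12, edgeR quasi-likelihood adjusted p = 2.1e-06), and TCP2, of the same class, averaged 3.98 ± 0.141 CPM in the mutant, against 9.58 ± 0.638 CPM in wild type. MYB factors were even, with 17 of 96 higher and 16 lower, but 10 falls and 1 rise reached 2-fold. MYB75, an activator of anthocyanin genes, averaged 1.16 ± 0.19 CPM in the mutant, against 4.34 ± 0.26 CPM in wild type. MYB111, which activates flavonol genes, and MYB94, which activates wax genes, had log2 fold changes of -1.77 and -1.51. Of 77 bHLH factors 16 rose and 18 fell, and those at 2 CPM or more that fell furthest were BHLH71 (-1.61) and BHLH57 (-1.59).

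Called changes in families of hormone response genes went in both directions. These families are small, and over all tested genes 12.6% rose and 17.4% fell. Aux/IAA proteins, the auxin-labile repressors, rose in 8 of 16 (5 without mutant replicate 1) and fell in 1. The single fall was the largest change, in IAA7, at 9.9 ± 1.14 CPM in the mutant, against 24.8 ± 5.06 CPM in wild type, while IAA26 averaged 153 ± 12.3 CPM in the mutant, against 105 ± 3.59 CPM in wild type. Two-component response regulators, which relay cytokinin, rose in 6 of 19 (31.6%) and fell in 1. Only 3 rose without mutant replicate 1, without mutant replicate 3 or without wild-type replicate 1, so these counts say little about the family. ARR3 averaged 3.64 ± 0.736 CPM in the mutant, against 1.83 ± 0.196 CPM in wild type. Against the rise in GA1, the later gibberellin enzyme gene GA3OX1 averaged 2.34 ± 0.0844 CPM in the mutant, against 4.89 ± 0.70 CPM in wild type. SAUR genes, induced by auxin in elongating organs, fell in 6 of 22 (27.3%, 5 of them at least 2-fold) and rose in 3, with AT2G21210 at 2.35 ± 0.0472 CPM in the mutant, against 6.3 ± 0.928 CPM in wild type. The summed share of counts of SAUR genes was nevertheless higher in the mutant, at 0.0212% against 0.0182% in wild type. Glutaredoxins rose in 10 of 25 and fell in 2, with 6 rises without mutant replicate 3 or without wild-type replicate 2. GRXC14 had 16.9, 14.4 and 17.7 CPM in the mutant libraries, against 6.64, 5.93 and 8.72 CPM in the wild-type libraries. Its mutant libraries were all higher (log2 fold change 1.2, SE 0.13, edgeR quasi-likelihood adjusted p = 6.4e-06), and GRXS8 averaged 2.14 ± 0.187 CPM in the mutant, against 0.947 ± 0.29 CPM in wild type.

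MKK9, a MAP kinase kinase that acts in ethylene and camalexin synthesis (chromosome 1, 27639091 to 27640643), had 107, 102 and 101 CPM in the mutant libraries, against 53.5, 52.4 and 54.4 CPM in the wild-type libraries. The replicates were tight in both groups and the mutant was clearly higher (log2 fold change 0.95, SE 0.06, edgeR quasi-likelihood adjusted p = 3.4e-08). Of 36 tested genes of the MAP kinase cascade 4 rose and 1 fell. The single fall was MAPKKK17, at 10.5 ± 1.28 CPM in the mutant, against 17.4 ± 1.37 CPM in wild type.

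General cell functions changed little. Ribosomal proteins described as 40S or 60S took 5.33% of counts in the mutant and 5.31% in wild type, and 8 of 196 rose and 6 fell. Without single libraries 3 to 5 rose and 0 to 8 fell. Of 54 translation initiation factors 1 rose, of 54 proteasome subunits 2 rose, and of 40 replication proteins 3 rose and 1 fell. Core and linker histones rose in 4 of 41 and fell in 2, and cyclins rose in 3 of 42 and fell in 7. Of 23 nuclear pore proteins, the complex in which PNET1 is found, 2 rose. NUP98A averaged 196 ± 2.63 CPM in the mutant, against 173 ± 5.17 CPM in wild type, and NUP155 had a log2 fold change of 0.13 that was not called without mutant replicate 2 or without wild-type replicate 1 or 3. With the GC and length offset it was 0.085 (edgeR adjusted p = 0.188). All these shares are below the 30.0% of genes called in the whole comparison.

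Splicing factors rose in 16 of 61 (26.2%, against 12.6% of all tested genes) and fell in 1. The changes were small, and 7 to 10 rose without mutant replicate 1 or 2 or wild-type replicate 2 or 3. Rises over all genes were also fewer in those fits, at 1752 to 2374, against 2480 in the full fit. How far the family stands above all genes is therefore uncertain. AT2G47250, an RNA helicase of the spliceosome, had 183, 179.6 and 180.0 CPM in the mutant libraries, against 126, 134 and 143 CPM in the wild-type libraries. The mutant libraries were all above wild type (log2 fold change 0.43, SE 0.05, edgeR quasi-likelihood adjusted p = 1.1e-05). F-box proteins, which choose targets for protein breakdown, rose in 40 of 269 (14.9%, near the share of all genes) and fell in 9 (3.35%), with 25 rises without wild-type replicate 2 and 5 falls without mutant replicate 1. AT2G40910 changed the most, at 3.2 ± 0.317 CPM in the mutant, against 0.971 ± 0.343 CPM in wild type. DEAD-box helicases rose in 13 of 74 (17.6%, against 12.6% of all tested genes) and fell in 6. Without mutant replicate 3 there were 8 rises, and without wild-type replicate 2 there were 7. These shares are near those of all genes in the same fits, where 1982 of 19875 and 1752 of 19898 rose.

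The most abundant transcripts moved by small steps. BGLU23, the myrosinase-like beta-glucosidase of endoplasmic reticulum bodies, had 5175, 6054 and 5850 CPM in the mutant libraries, against 8602, 7297 and 7462 CPM in the wild-type libraries. It overlaps a gene on the other strand and fell by 0.45 on the log2 scale. VSP2, a vegetative storage protein induced by jasmonate, averaged 1110 ± 76.3 CPM in the mutant, against 1682 ± 229 CPM in wild type. The 10 most abundant genes that fell had log2 fold changes of -1.22 to -0.10, and 3 of them lost the call when some single library was left out. Of the 10 most abundant that rose, at 0.11 to 0.95, 5 did so. Among the others DJ1A, a homologue of an animal protein of oxidative stress, had 1736, 1672 and 1694 CPM in the mutant libraries, against 1085, 1124 and 1253 CPM in the wild-type libraries. The libraries did not overlap (log2 fold change 0.56, SE 0.07, edgeR quasi-likelihood adjusted p = 1.2e-04). AT2G05510, named in the files only by its locus, had 1880, 1830 and 1291 CPM in the mutant libraries, against 710.2, 869 and 1003 CPM in the wild-type libraries. Both groups spread widely but did not overlap (log2 fold change 0.95, SE 0.19, edgeR quasi-likelihood adjusted p = 0.0098). ATGRP9, a glycine-rich protein, averaged 3503 ± 266 CPM in the mutant, against 2577 ± 205 CPM in wild type, and MLP28, a major latex-like protein, averaged 3374 ± 75.4 CPM in the mutant, against 2827 ± 180.5 CPM in wild type.

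Called genes were spread over the genome. On chromosomes 1 to 5, 11.5% to 13.1% of tested genes rose and 16.4% to 18.4% fell. Over 110 windows of 1 Mb the share called was 20.6% to 41.1%, and it was 26.1% of 226 tested genes in the window of PNET1. Within 50 kb of PNET1, 28 other genes were tested, of which 4 rose and 2 fell. The rises were in AT1G08050 (0.39 on the log2 scale), MPK13, a MAP kinase (0.29), TPST, a tyrosine sulfotransferase that matures peptide hormones (0.21), and AT1G07990 (0.15). Of the falls, AT1G07985 had a log2 fold change of -1.76 at under 1 CPM and an edgeR adjusted p of 0.0608 without wild-type replicate 2, and APX1, a peroxidase that removes hydrogen peroxide, was at -0.12. The calls of APX1, TPST and AT1G07990 were lost without single libraries, APX1 without every library but wild-type replicate 1 (edgeR adjusted p = 0.0603 to 0.103), TPST without mutant replicate 1 or 3 or wild-type replicate 1 or 2 (0.0927 to 0.109), and AT1G07990 without mutant replicate 1 or wild-type replicate 1 or 2 (0.0774 to 0.0951). The longest runs of neighbouring tested genes that all fell were 7 plastid genes and, in the nucleus, 6 genes on chromosome 1 from 24489758 to 24518601, namely PAO4, AT1G65845, FMOGS-OX1, DIR21, AAE12 and AT1G65900.

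The overexpression line shares the wild-type libraries with this comparison, so its values are only set beside those of the mutant. In that line 2208 genes were called against wild type (11.2%), 1175 higher (5.97%) and 1033 lower (5.24%). Genes described as chloroplastic rose in 186 of 897 there and fell in 18, and nuclear chloroplast ribosomal proteins rose in 20 of 28. NAC factors fell in 12 of 66 and rose in 2. Light-harvesting proteins rose in 4 of 23, and 3-ketoacyl-CoA synthases in 3 of 17. Other families named for the mutant did not take the opposite direction in that line. Leucine-rich repeat receptor-like kinases rose in 17 of 108 and fell in 7, and NLR proteins rose in 9 of 130 and fell in 5. AP2/ERF factors rose in 10 of 94 and fell in 8, and pectate lyases and polygalacturonases rose in 7 of 41 and fell in 8. Histones rose in 11 of 41 in that line, where the mutant had 4 rises and 2 falls.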

How the data were processed

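The authors deposited raw counts per gene, 1 column per library, and a table of FPKM values; HISAT2 2.0.4, HTSeq 0.6.1p1 and TAIR10 are named in the submitters' processing notes without their roles. How strand was handled in counting, and whether genes were filtered, is not stated there. Per the file headers each gene has a description and a length, and families were formed from words in the description; the deposited family column, filled for 50.1% of genes including many enzymes, was not used. Members, lists and families were chosen with earlier results of these data known.

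Of 32833 genes, 7236 had no count. filterByExpr of edgeR 4.0.16 (R 4.3.3; minimum count 10, total 15) kept 19698 and left out 13135. All 9 libraries entered 1 quasi-likelihood fit with TMM scaling; a gene was called at an adjusted p (Benjamini-Hochberg) under 0.05. SE is implied by the F statistic. Named genes were PNET1, the 12 largest changes each way at 5 CPM or more with no overlap of libraries, the 10 most abundant called genes each way, up to 3 called members per family at 2 CPM or more, 8 transcription factors each way, list markers and genes within 50 kb of PNET1; other genes, in promoters and runs, were picked with their values seen. The marker symbols PLT3 and PLT5, which the table gives to polyol transporters, were read as AIL6 and AIL5. On simulated counts for the mutant comparison (19553 genes, 200 changed), 71% of 1.5-fold and 86.9% of 2-fold changes were recovered and 12 of 169 calls were false. Promoters are the 250 bases before the TAIR10 gene start, on the reference genome, whose gene positions match the table for 32532 of 32548 identifiers. Alternatives covered scaling (RLE, upper quartile, totals), DESeq2 1.42.0, filters, a replicate block, a GC and length offset, a 1.2-fold test and leaving out each library. Wilson intervals and floors cover counting error only.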

Additional observations from a re-analysis of the deposited data

How the results depend on the processing

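Testing for a change of at least 1.2-fold left 661 rises and 1870 falls. A mean of at least 5 CPM left 15 rises and 465 falls of at least 2-fold, among 15488 genes. Leaving out single libraries gave 1752 to 2374 rises, 2737 to 3296 falls, 69 to 133 rises of at least 2-fold and 872 to 1143 falls of at least 2-fold. Rises and falls in all these fits were fewer than in the full fit, so family counts without a library belong beside these totals. DESeq2 gave 2083 rises and 2994 falls, library totals 2947 and 3179, and the GC and length offset 2391 and 3467. Outside ribosomal RNA genes, the share of counts in the mutant minus that in wild type was -0.002244 percentage points for plastid-encoded and -0.000316 for mitochondrion-encoded genes. Both differences moved from those over all counts by more than the pooled SD of the libraries.

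Replicate numbers did not pair the samples: deviations of same-numbered libraries correlated at -0.106, 0.115 and 0.0114. With the replicate block 2373 genes rose and 3310 fell, and with the block and the GC and length offset 2286 and 3310. Of 331 called named genes none reversed in any of these settings; 61 lost the call without some single library, 29 in another setting and 80 in the 1.2-fold test, the cause not being tested. Of 55 family counts of 10 or more, 22 moved by over 1.5 times in some setting other than the 1.2-fold test. In windows of 0.5 Mb the share called was 13.5% to 46.2%. Promoters of 150 bases held CCAATC in 10 and CACGTG in 9 of the 41 photosynthesis genes. Genes near 1 CPM rest on fewer than 20 counts per library, which limits the changes that can be called.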
